A study of Mus musculus with 4 samples.

Results

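The interferon-induced transmembrane (Ifitm) genes Ifitm1, Ifitm2, Ifitm3 and Ifitm6 were examined in single-cell RNA sequencing data of cardiac cells carrying the CSF1R-EGFP myeloid reporter. The 4 genes were taken by their symbols from the 31053 genes of the count tables. They were selected on the measured ratio of infarct to baseline of Ifitm1, summed over cells, with the other 3 added as its family. This ratio and the level of Ifitm1 in dendritic cells are therefore given as descriptions without a test. EGFP-positive, Ly6G-negative cells had been sorted from CSF1R-EGFP mice aged 12 to 16 weeks, in which the Csf1r promoter drives EGFP in macrophages and monocytes and also marks other leukocytes. The baseline group was 1 library of 3 pooled hearts without surgery, and each of the 3 infarct libraries came from a single heart, harvested 7 days after ligation of the left coronary artery with the non-infarcted remote zone cut away. The groups therefore differed in surgery, in pooling and in the region digested, and these cannot be told apart.

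IFITM proteins are small membrane proteins that sit in the plasma membrane and in endosomes and lysosomes, where they hinder the fusion of enveloped viruses with the cell membrane. Many of them are induced by type I and type II interferons, which act through the receptors encoded by Ifnar1, Ifnar2, Ifngr1 and Ifngr2 and the Janus kinases Jak1, Jak2 and Tyk2. IFITM3 is the best known member for restriction of influenza virus, and S-palmitoylation by enzymes such as ZDHHC20 holds it in the membrane. In myeloid cells, Ifitm genes are also expressed without infection.

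The 4 genes lie together on chromosome 7 of the GRCm38 assembly (GENCODE annotation), all annotated as protein coding. Ifitm2 lies at chr7:140954837-140955987 on the minus strand, Ifitm1 at chr7:140967221-140969825 on the plus strand, Ifitm3 at chr7:141009586-141010770 on the minus strand and Ifitm6 at chr7:141015699-141017924 on the minus strand. Their RefSeq promoter windows (GRCm38.p6, 250 bases before to 50 bases after the start, 5′ to 3′ on the strand of the gene) are printed because the genes differed in how they moved with interferon-response macrophages. Capitals mark matches to the core of the interferon-stimulated response element (ISRE core, GAAA followed by any 2 bases and GAAA), searched on both strands. The windows are chr7:140967826-140968125 (plus) for Ifitm1, chr7:140955912-140956211 (minus) for Ifitm2, chr7:141010695-141010994 (minus) for Ifitm3 and chr7:141016843-141017142 (minus) for Ifitm6.
Ifitm1: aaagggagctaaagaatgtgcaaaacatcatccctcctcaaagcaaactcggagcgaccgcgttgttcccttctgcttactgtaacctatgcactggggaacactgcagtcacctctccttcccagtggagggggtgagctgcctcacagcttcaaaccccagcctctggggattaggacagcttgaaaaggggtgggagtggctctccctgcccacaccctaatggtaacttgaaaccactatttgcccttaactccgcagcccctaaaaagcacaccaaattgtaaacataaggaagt
Ifitm2: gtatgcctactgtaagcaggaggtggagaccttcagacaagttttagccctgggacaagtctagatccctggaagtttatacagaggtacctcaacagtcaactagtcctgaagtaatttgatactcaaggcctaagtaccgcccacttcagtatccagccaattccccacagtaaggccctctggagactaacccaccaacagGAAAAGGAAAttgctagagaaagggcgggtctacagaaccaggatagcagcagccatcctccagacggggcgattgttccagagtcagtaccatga
Ifitm3: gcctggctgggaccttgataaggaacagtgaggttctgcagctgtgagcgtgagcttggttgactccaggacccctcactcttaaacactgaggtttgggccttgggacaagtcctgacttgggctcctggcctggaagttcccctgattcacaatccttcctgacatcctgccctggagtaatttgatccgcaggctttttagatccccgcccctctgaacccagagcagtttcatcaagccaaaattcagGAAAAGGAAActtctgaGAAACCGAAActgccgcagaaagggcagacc
Ifitm6: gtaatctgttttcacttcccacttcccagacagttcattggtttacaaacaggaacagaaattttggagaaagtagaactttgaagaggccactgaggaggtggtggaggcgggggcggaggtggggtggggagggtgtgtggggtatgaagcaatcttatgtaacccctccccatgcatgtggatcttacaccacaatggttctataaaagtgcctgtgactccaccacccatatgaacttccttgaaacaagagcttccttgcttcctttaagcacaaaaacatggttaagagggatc

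The Ifitm3 window held 2 matches to the ISRE core, at positions 2 to 11 and 19 to 28 counted from 0 at the annotated start. The Ifitm2 window held 1 match, at positions -46 to -37, and the Ifitm1 and Ifitm6 windows held none. The Ifitm1 and Ifitm6 windows lay wholly inside the genes as GENCODE places them, whereas those of Ifitm2 and Ifitm3 spanned the GENCODE starts. Sequence before the GENCODE starts of Ifitm1 and Ifitm6 was therefore not searched. Of 32851 promoter windows of this length, 3.44% held at least 1 match. TTCNNNGAA, the core of the gamma-activated site, was found once in the Ifitm3 window, at positions 13 to 21 and overlapping the second ISRE core match, once in the Ifitm6 window and in 8.30% of all windows. A match describes these letters only.

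Cells were assigned by markers: a cell entered a gate when it had a UMI (unique molecular identifier, 1 counted transcript) for at least 3 of the 6 marker genes of that gate and for more of them than of any other gate. Dendritic-cell, monocyte and granulocyte gates also required fewer than 10 UMIs of C1qa, C1qb and C1qc per 10000, and macrophage gates required at least that many. After filters, 10117 to 10782 cells per library were kept, with median depths of 6398.5 UMIs per cell at baseline and 8469.5 to 8556.5 in infarcts, and any pair of libraries shared 26 to 34 barcodes. The type 2 dendritic cell (cDC2) gate held 163 cells at baseline and 278, 168 and 170 in infarcts 1, 2 and 3. A further 39 cells at baseline and 72, 56 and 42 in infarcts passed its markers but were left out for C1q, so values of this gate describe the C1q-low cells only. The check genes Itgax and H2-Ab1 of the cDC2 gate, which did not define it, were each over 2-fold the level of all cells in every library. The granulocyte gate held 29 to 47 cells per library although Ly6G-positive cells had been excluded, and its check genes S100a8 and S100a9 were over 2-fold the level of all cells in every library, as were those of the classical monocyte and interferon gates. In the non-classical monocyte gate 1 of 2 check genes was (Itgal, not Cx3cr1). In the reparative gate, which held 29.8% to 39.7% of infarct cells, neither check gene was in any infarct, and 4, 0 and 0 of its 6 markers were in infarcts 1, 2 and 3. The mature dendritic cell gate passed for both check genes in every infarct.

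Ifitm1 was highest in cDC2-gated cells of infarcts, above the granulocyte, monocyte and macrophage gates in 3 of 3 hearts. Summed over the gate, its level was 33.0 CPM at baseline (CPM, counts per 1000000 UMIs of non-mitochondrial genes), from 62 UMIs (exact Poisson 95% interval 25.3 to 42.3, counting error only). In infarcts 1, 2 and 3 it was 2127, 3363 and 792 CPM, a mean of 2094 ± 1286 (SD, n = 3) and a log2 ratio of 5.99 to baseline. Summed granulocyte markers in the gate were 37.7 CPM at baseline and 90.7, 231 and 93.9 CPM in infarcts, highest in the same infarct as Ifitm1, with 2 or 3 of 6 markers at 0 in each library, and their part in the Ifitm1 values was not tested. Each infarct library lay above the baseline value, and the 3 infarct libraries differed among themselves by 4.25-fold. Among genes averaging 10 CPM or more in this gate 3.19% were at least 2-fold higher in infarcts with every infarct library above baseline, as were Ifitm1 and Ifitm2. Nothing is read from this share, since Ifitm1 was selected on this contrast. Without a second baseline library the ratio has no replicate check.

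**Figure D1:**
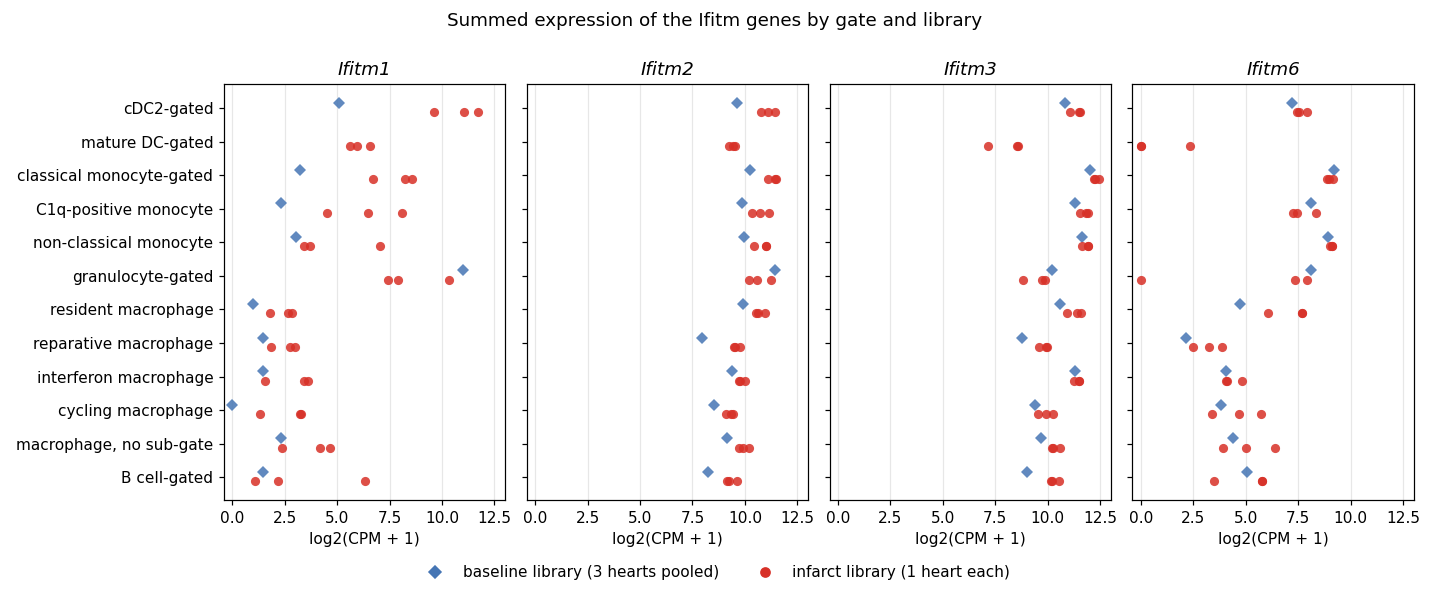
Summed level of the 4 Ifitm genes, as log2(CPM + 1), in each gate (rows); diamonds are the baseline library and circles the 3 infarct libraries, and gates with fewer than 10 cells in a library show no point for it. Ifitm1 of cDC2-gated cells sits at 792 to 3363 CPM in infarcts and 33.0 CPM at baseline, whereas in granulocyte-gated cells its baseline value lies above every infarct value.

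In the monocyte gates Ifitm1 was lower, and every infarct library lay above baseline by margins that varied between gates and hearts. In classical monocyte-gated cells Ifitm1 was 8.28 CPM at baseline and 296, 373 and 103 CPM in the infarcts, a log2 ratio of 4.96. Classical monocyte-gated cells of infarcts with at least 10 Ifitm1 UMIs held 96.9, 203 and 72.9 CPM of Cd209a, a marker of the cDC2 gate, against 14.9, 8.59 and 6.87 CPM in those with none. The former were 44, 50 and 5 cells, so the value of infarct 3 rests on few cells, and cells were not thinned to equal depth here. No cDC2 marker was found in 81.8%, 80.0% and 40.0% of the cells with at least 10 and in 85.8%, 87.9% and 79.9% of those with none. The part of dendritic-cell RNA in these values was not tested. Cells with monocyte markers and C1q held 4.00 CPM at baseline, from 8 UMIs, and 88.9, 272 and 22.1 CPM in infarcts. In non-classical monocyte-gated cells the values were 7.30 CPM against 12.1, 131 and 9.67 CPM, so that most of the infarct mean came from infarct 2. Macrophage-gated cells were low in every library, with 2.29 CPM at baseline and 12.3, 10.4 and 3.34 CPM in infarcts. Infarct 3 had the lowest Ifitm1 level of the infarct libraries in the cDC2, classical and macrophage gates and in the granulocyte gate.

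Neighbouring gates in the order of infarct levels overlapped. From the cDC2 gate down through granulocytes, classical monocytes, C1q-positive monocyte-marker cells, mature dendritic cells and non-classical monocytes to the macrophage gates, the range of Ifitm1 over the 3 hearts overlapped that of the next gate at every step. For Ifitm3 the classical monocyte gate lay above all others without overlap and the mature dendritic cell gate below all others, and for Ifitm6 both monocyte gates without C1q lay above all others.

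Granulocyte-gated cells went the other way. Ifitm1 was 2068 CPM at baseline (220 UMIs, exact Poisson 95% interval 1804 to 2360) and 1306, 240 and 170 CPM in infarcts, so that every infarct library lay below baseline. The gate was not alike in all libraries: its summed markers were 15678 CPM at baseline and 10441, 9990 and 4662 CPM in infarcts, and Retnlg alone was 8196 CPM at baseline and 77.4 CPM in infarct 3. The part of these differences in the Ifitm1 values was not tested.

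The share of cells with an Ifitm1 UMI was compared after thinning each cell to 2000 UMIs. In the cDC2 gate it was 4.94% at baseline (exact 95% interval 2.16 to 9.50%, counting error over cells only) and 64.7%, 64.3% and 35.9% in infarcts. This is a description, since cells are no replicates of a group and Ifitm1 was selected on this contrast. Without thinning the cDC2 gate had median depths of 11100 UMIs at baseline and 9948 to 10118 in infarcts. In B cell-gated cells, taken as the background, the share was 0% at baseline and 2.33%, 0% and 0% in infarcts, with median depths of 3764 and 9878 to 10323 UMIs. B cell-gated cells of infarcts also carried 9717 to 13211 CPM of summed C1q genes, a macrophage product, and in the subset under the C1q limit, which was added after seeing the data, Ifitm1 had 0, 0, 1 and 0 UMIs in 71, 14, 8 and 29 cells. In macrophage-gated cells the share was 0.202% at baseline and 1.28%, 0.974% and 0.472% in infarcts.

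**Figure D2:**
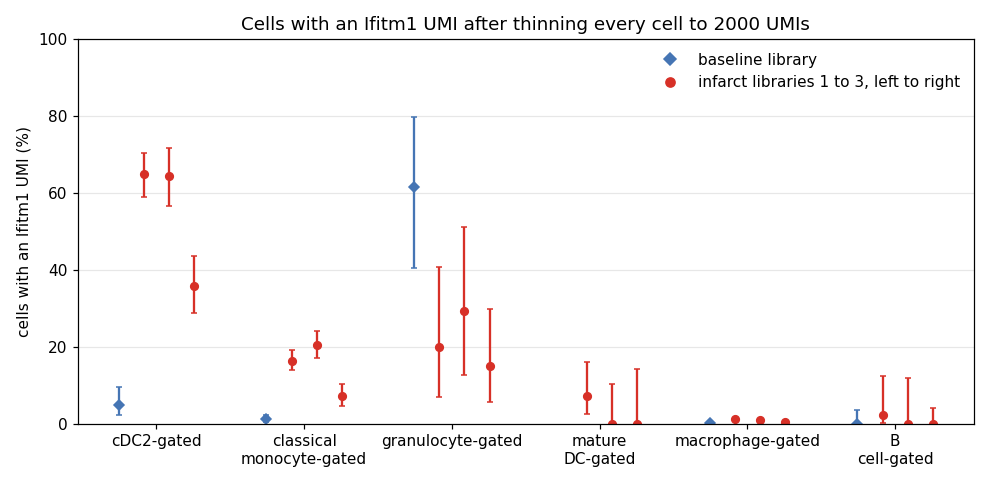
Share of cells with an Ifitm1 UMI by gate after thinning to 2000 UMIs, with exact 95% binomial intervals; the diamond is baseline and the circles are infarcts 1 to 3 from left to right, and gates with fewer than 10 cells show no point. The cDC2 gate is at 4.94% at baseline and between 35.9% and 64.7% in infarcts, and the macrophage and B cell gates are at most 2.33%.

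Few cells carried most of the Ifitm1 UMIs. Cells with at least 10 Ifitm1 UMIs numbered 16 at baseline and 264, 237 and 55 in infarcts, and they held 43.5% of the Ifitm1 UMIs at baseline and 83.1%, 88.0% and 71.7% in infarcts. At baseline, 9 of the 16 were granulocyte-gated and none was cDC2-gated. In infarcts, 131, 92 and 35 were cDC2-gated and 44, 50 and 5 were classical monocyte-gated. The others included 19, 25 and 2 C1q-positive monocyte-marker cells, 15, 15 and 2 macrophage-gated cells and 13, 17 and 7 cells of no gate. They also included 17, 17 and 1 cells with cDC2 markers that were left out for C1q. Such cells made up 47.1%, 54.8% and 20.6% of the cDC2 gate and 23.6%, 30.4% and 2.38% of the cells with cDC2 markers left out for C1q. In the cDC2 gate the median cell had 8, 16.5 and 1 Ifitm1 UMIs in infarcts 1, 2 and 3, and the highest had 137, 167 and 132. The cDC2 gate held 1.56% to 2.67% of infarct cells and 51.6%, 48.9% and 56.0% of their Ifitm1 UMIs, against 1.59% of baseline cells and 9.64% of the UMIs.

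**Figure D3:**
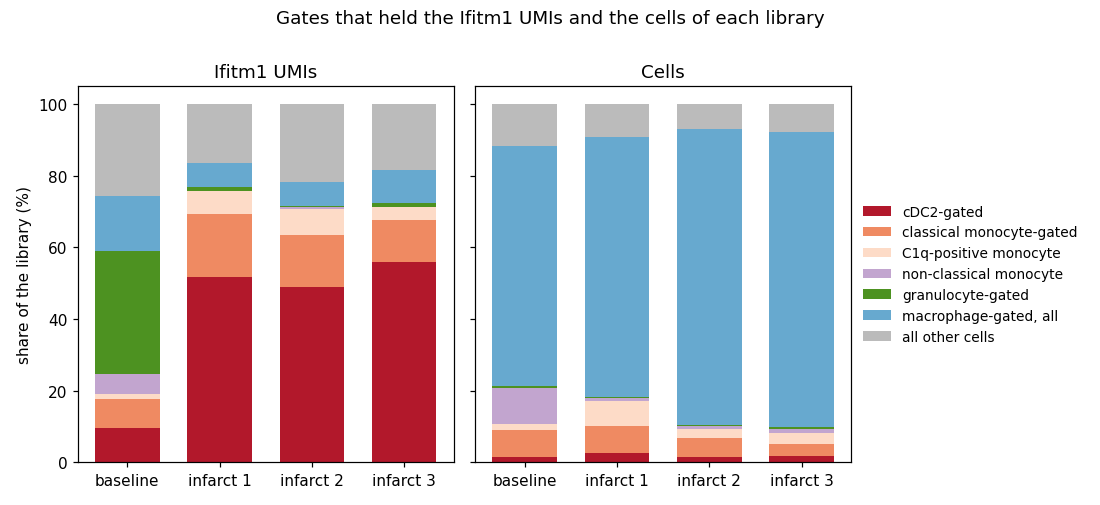
Share of all Ifitm1 UMIs (left) and of all cells (right) that lay in each gate, by library, in percent. In the infarct libraries the cDC2 gate holds 48.9% to 56.0% of the Ifitm1 UMIs with at most 2.67% of the cells, and at baseline the granulocyte gate holds 34.2% of the Ifitm1 UMIs with 0.459% of the cells.

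Within the cDC2 gate, cells with an Ifitm1 UMI after thinning also had more Ifitm2 and Ifitm3 in 3 of 3 infarct hearts. In infarcts 1, 2 and 3, Ifitm2 was 2507, 3581 and 2119 CPM in cells with an Ifitm1 UMI and 1568, 1479 and 1557 CPM in those without. Ifitm3 was 2985, 3320 and 2546 CPM against 2586, 2061 and 1895 CPM. Ifitm6 was 266, 152 and 268 CPM against 211, 171 and 141 CPM, higher in 2 of 3. The same cells held 94.5, 451 and 159 CPM of summed granulocyte markers, against 42.2, 59.9 and 65.7 CPM. Summed cDC2 markers were higher in cells with an Ifitm1 UMI in 3 of 3 infarcts, at 2705, 2518 and 2454 CPM against 2053, 2471 and 2284 CPM. Cd209a, 1 of these markers, was higher only in infarct 1, at 1079, 901 and 745 CPM against 913, 1248 and 1144 CPM. Ccr2, a chemokine receptor of monocytes and their progeny, was lower in 3 of 3, at 615, 602 and 561 CPM against 961, 735 and 769 CPM. H2-Ab1, an MHC class II gene, was also lower in 3 of 3, at 12772, 14128 and 12848 CPM against 13497, 14425 and 13305 CPM. Summed classical monocyte markers went both ways, at 933, 849 and 553 CPM against 765, 983 and 361 CPM. So did Ly6c2, at 54.4, 56.9 and 41.9 CPM against 116, 137 and 9.38 CPM. The part of granulocyte RNA in these values was not tested.

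Counted by gate, the number of members with every infarct library above baseline ran from 0 to 4. Each count is given beside the share of genes averaging 10 CPM or more that did the same. No such floor was set for the members, and some counted members lay under it. Ifitm1 was 0.978 CPM at baseline and 4.69 CPM by the infarct mean in the resident gate. It was 1.73 and 5.06 CPM in the reparative, 0 and 6.16 CPM in the cycling and 1.77 and 7.58 CPM in the interferon gate. Ifitm6 was 3.46 and 8.88 CPM in the reparative gate. All 4 members did so in cDC2-gated cells (28.1% of genes), resident-gated macrophages (25.1%) and reparative-gated macrophages (32%). It was 3 of 4 in classical monocytes (29.3%), C1q-positive monocyte-marker cells (24.7%), non-classical monocytes (24.9%), cycling macrophages (29.3%) and macrophages of no sub-gate (30.5%). It was 2 of 4 over all cells (29.5%), and in interferon-gated macrophages (29.2%), B cells (25.9%) and fibroblasts (25%). In granulocytes it was 0 of 4 (37.5%), and all 4 members had every infarct library below baseline there (26.7% of genes). Ifitm6 was also below baseline in every infarct over all cells (57.1% of genes), in classical monocytes (47%) and in fibroblasts (39.6%). Each count is over 4 members that include Ifitm1, which was selected on its infarct ratio, so nothing is read from these counts.

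Ifitm2 was higher in infarcts in nearly every gate, with smaller ratios than Ifitm1. Over all cells it was 799 CPM at baseline and 1261, 1081 and 897 CPM in infarcts, a log2 ratio of 0.43 that became 0.71 when the libraries were scaled by TMM factors. TMM scaling moved the median log2 ratio of all genes by 0.27 in all cells. Of 12 gates with at least 10 cells in each library, every infarct library lay above baseline in 11, and the exception was the granulocyte gate. In cDC2-gated cells Ifitm2 was 788 CPM at baseline and 2211, 2738 and 1721 CPM in infarcts. In reparative-gated macrophages (Gpnmb, Gdf15, Syngr1, Spp1, Trem2 and Rapsn) it was 245 CPM at baseline, where only 124 cells entered the gate, and 714, 858 and 739 CPM in infarcts.

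Ifitm3, best known for restricting influenza virus, had the log2 ratio nearest 0 over all cells. It was 1710 CPM at baseline and 1857, 1590 and 1445 CPM in infarcts, with 1 of 3 infarct libraries above baseline and a log2 ratio of -0.07 that turned to 0.20 under TMM scaling. Within gates, every infarct library lay above baseline in 9 of 12, and in the granulocyte gate every one lay below. Over all macrophage-gated cells together Ifitm3 was 1166 CPM at baseline and 1196, 1226 and 1194 CPM in infarcts. Over macrophages outside the interferon gate it was 1147 CPM at baseline and 1118, 1087 and 1109 CPM in infarcts, every one below. Its highest infarct level was in classical monocyte-gated cells, at 4195 CPM at baseline and 4948, 5646 and 4712 CPM in infarcts. In macrophages with resident markers (Lyve1, Timd4, Cd163, Folr2, Vsig4 and Cbr2) it was 1527 CPM at baseline and 3060, 1954 and 2687 CPM in infarcts.

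Ifitm6 was lower over all cells of infarcts, although not in all gates. It was 137 CPM at baseline and 122, 45.8 and 59.9 CPM in infarcts, a log2 ratio of -0.85, with every infarct library below baseline. Non-classical monocyte-gated cells, among the highest in Ifitm6, were 10.1% of baseline cells and 0.808% to 1.14% of infarct cells, and they held 26.3% of the baseline Ifitm6 UMIs. In these cells it was 480 CPM at baseline and 558, 513 and 548 CPM in infarcts. Classical monocyte-gated cells held 3751 of the 9233 baseline Ifitm6 UMIs and were 7.57% of baseline cells and 7.48%, 5.16% and 3.42% of infarct cells. In them Ifitm6 was 597 CPM at baseline and 507, 470 and 579 CPM in infarcts. The part of these cell shares in the ratio over all cells was not tested. In resident-gated macrophages Ifitm6 was 25.4 CPM at baseline and 203, 66.3 and 203 CPM in infarcts. Summed classical monocyte markers of the same gate were 20.3 CPM at baseline and 146, 30.8 and 82.2 CPM in infarcts, also lowest of the infarcts in infarct 2, and their part in the Ifitm6 values was not tested. Over 12 gates, every infarct library lay above baseline in 4 and below in 3.

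Among the infarct libraries, gates were then compared with both sums of a heart kept together as a block. The fit used edgeR's quasi-likelihood test over all genes, and a gene was called at an adjusted p under 0.01 (Benjamini-Hochberg). In cDC2-gated against macrophage-gated cells the 3 members tested were all higher in cDC2-gated cells, as were 17.7% of all genes. Ifitm2 was 2224 ± 509 CPM against 870 ± 60.5 CPM (SD, n = 3), a log2 fold change of 1.33 ± 0.07 (SE, edgeR adjusted p = 1.95e-11). Ifitm3 had a log2 fold change of 1.13 ± 0.07 (edgeR adjusted p = 2.22e-10) and Ifitm6 one of 3.14 ± 0.23 (edgeR adjusted p = 1.13e-09), each higher in 3 of 3 hearts. Ifitm1, described only, was 2094 ± 1286 CPM against 8.67 ± 4.71 CPM. Summed classical monocyte markers were 882, 939 and 488 CPM in cDC2-gated cells and 132, 68.5 and 77.3 CPM in macrophages, and their part in these values was not tested.

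Mature dendritic cell-gated cells, marked by Ccr7 and Fscn1 and present at 25 to 73 cells per infarct, had lower Ifitm levels than cDC2-gated cells. Ifitm1, described only, was 92.2, 61.0 and 47.9 CPM in them and 2127, 3363 and 792 CPM in cDC2-gated cells, with no overlap. Ifitm6, also described only because it passed the filter on low counts through the other gate, had 1 UMI in the mature gate over the 3 infarcts and 1291 in the cDC2 gate. The ratio of its pooled levels was 0.00495 to cDC2-gated cells (exact 95% interval 0.000125 to 0.0276, counting error only) and 0.0412 to macrophages (exact 95% interval 0.00104 to 0.230). Both members tested were lower than in cDC2-gated cells, as were 12% of all genes, with log2 fold changes of -1.56 ± 0.14 for Ifitm2 (SE, edgeR adjusted p = 3.14e-09) and -3.05 ± 0.21 for Ifitm3 (edgeR adjusted p = 3.45e-11). Summed classical monocyte markers were 25.0, 44.7 and 91.1 CPM in the mature gate and 882, 939 and 488 CPM in the cDC2 gate. Their part in these values was not tested. Against macrophages 1 of 2 members tested was lower, as were 13.3% of all genes. It was Ifitm3, with a log2 fold change of -2.04 ± 0.15 (edgeR adjusted p = 3.27e-38). Ifitm2 did not pass (log2 fold change -0.36 ± 0.14, edgeR adjusted p = 0.0375), but did after thinning to 2000 UMIs (log2 fold change -0.93, edgeR adjusted p = 0.000246, the lowest over 14 alternatives, which reached 0.514). Type 1 dendritic cells were too few to test, with 3 to 8 gated cells per infarct.

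Classical monocyte-gated cells exceeded macrophages for all 4 members, and 15.7% of all genes were likewise higher. Ifitm1 was 296, 373 and 103 CPM in monocyte-gated cells and 12.3, 10.4 and 3.34 CPM in macrophages, a log2 fold change of 4.94 ± 0.13 (SE, edgeR adjusted p = 8.89e-07). Ifitm2 was 2601 ± 388 CPM and Ifitm3 5102 ± 486 CPM in monocyte-gated cells, with log2 fold changes of 1.61 ± 0.07 (edgeR adjusted p = 4.48e-06) and 2.12 ± 0.06 (edgeR adjusted p = 1.31e-06). Ifitm6 was 519 ± 55.5 CPM against 26.1 ± 18.1 CPM, a log2 fold change of 4.61 ± 0.39 (edgeR adjusted p = 9.16e-05).

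Cells with monocyte markers and C1q had less of 3 members than classical monocyte-gated cells, and 2.77% of all genes were likewise lower. The log2 fold changes were -0.67 ± 0.11 for Ifitm2 (SE, edgeR adjusted p = 0.00503), -0.63 ± 0.08 for Ifitm3 (edgeR adjusted p = 0.00155) and -1.39 ± 0.20 for Ifitm6 (edgeR adjusted p = 0.00345), each lower in 3 of 3 hearts. Ifitm1 was also lower in 3 of 3 hearts but did not pass (log2 fold change -1.43 ± 0.27, edgeR adjusted p = 0.0106). None of the 3 calls held without the block (edgeR adjusted p = 0.122, 0.0367 and 0.0285) or without infarct 2 (0.0415, 0.0206 and 0.0150), whereas Ifitm1 passed without infarct 2 (log2 fold change -1.98, edgeR adjusted p = 0.000263) and without infarct 3 (log2 fold change -1.13, edgeR adjusted p = 2.67e-11). Over all 14 alternatives the highest adjusted p was 0.122 for Ifitm2, 0.0367 for Ifitm3, 0.0285 for Ifitm6 and 0.459 for Ifitm1.

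Non-classical monocyte-gated cells held less Ifitm1, Ifitm2 and Ifitm3 than classical ones, and 7.86% of all genes were likewise lower. Ifitm1 was 12.1, 131 and 9.67 CPM against 296, 373 and 103 CPM, a log2 fold change of -2.55 ± 0.31 (SE, edgeR adjusted p = 1.85e-05). Ifitm2 and Ifitm3 had log2 fold changes of -0.60 ± 0.06 (edgeR adjusted p = 1.51e-06) and -0.56 ± 0.05 (edgeR adjusted p = 8.52e-07). Ifitm6 stood at 540 ± 23.6 CPM against 519 ± 55.5 CPM, a difference that did not pass (log2 fold change -0.01 ± 0.09, edgeR adjusted p = 0.947). Without the block only the call of Ifitm3 held (edgeR adjusted p = 0.00557, the highest over 14 alternatives), and those of Ifitm1 and Ifitm2 did not (0.0286 and 0.0237).

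Granulocyte-gated cells had less Ifitm2, Ifitm3 and Ifitm6 than classical monocyte-gated cells, and 9.55% of all genes were likewise lower. Ifitm3 was 857, 935 and 457 CPM in them and 4948, 5646 and 4712 CPM in monocyte-gated cells, a log2 fold change of -3.09 ± 0.16 (SE, edgeR adjusted p = 5.68e-79). The log2 fold change of Ifitm2 was -0.93 ± 0.15 (edgeR adjusted p = 7.21e-09), and that of Ifitm6 was -2.44 ± 0.24 (edgeR adjusted p = 5.97e-22), from 34 UMIs in the granulocyte gate. The call of Ifitm2 was lost without the block (edgeR adjusted p = 0.0175, the highest over 14 alternatives) and with DESeq2 (adjusted p = 0.0155), and that of Ifitm6 with DESeq2 (adjusted p = 0.290, the highest over 14 alternatives). Ifitm1 was 1306, 240 and 170 CPM against 296, 373 and 103 CPM, higher in 2 of 3 hearts, with a log2 fold change of 0.68 ± 0.21 (edgeR adjusted p = 0.00684) that turned to -0.25 without infarct 1 (edgeR adjusted p = 0.671). In this comparison 5.3% of all genes were higher, and the adjusted p of Ifitm1 ranged from 1.07e-10 to 0.671 over 14 alternatives, 7 of which lost the call.

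**Figure D4:**
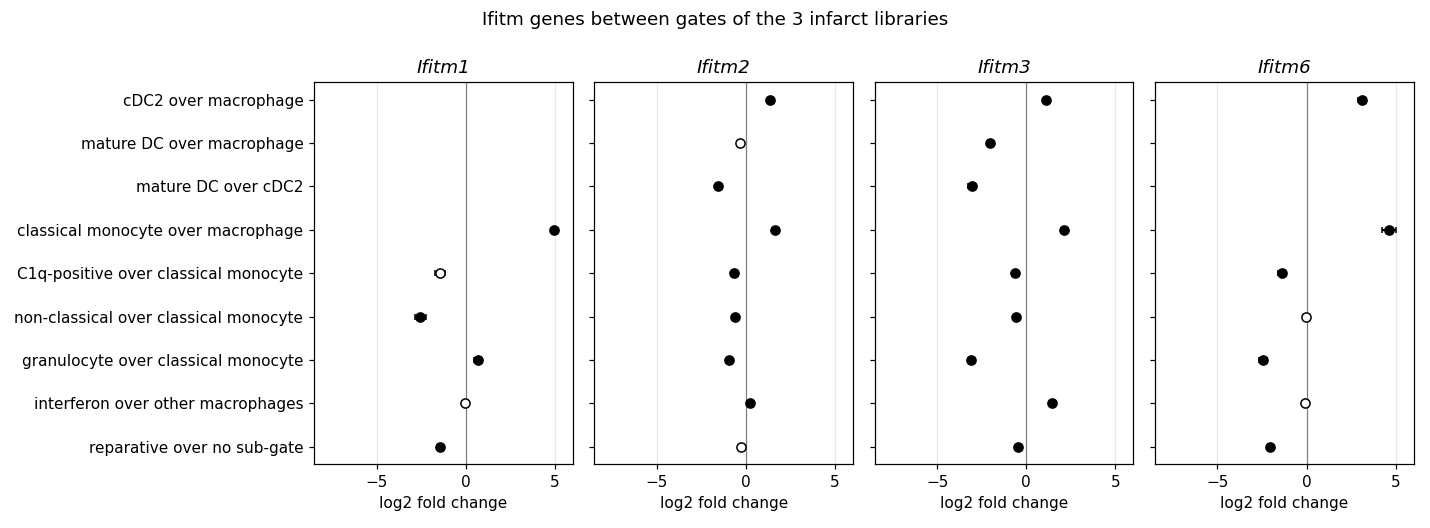
Log2 fold changes of the 4 Ifitm genes between gates of the 3 infarct libraries (points, with bars of 1 SE from the edgeR fit); filled points passed an adjusted p under 0.01 over all genes, open points did not, and comparisons that were only described are not drawn (Ifitm1 with dendritic-cell gates, Ifitm6 with the mature gate). Mature dendritic cell-gated cells lie to the left of cDC2-gated cells for Ifitm2 and Ifitm3, and interferon-gated macrophages lie to the right mainly for Ifitm3, at 1.42.

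Interferon-gated macrophages, marked by Ifit1, Ifit3, Rsad2, Cxcl10, Cmpk2 and Oasl1, differed from other macrophages mainly in Ifitm3. Ifitm3 was 2464, 2844 and 2839 CPM in them and 1118, 1087 and 1109 CPM in the others, with no overlap, and its log2 fold change was 1.42 ± 0.04 (SE, edgeR adjusted p = 2.11e-29). Higher calls made up 8.39% of all genes. Ifitm2 had a log2 fold change of 0.21 ± 0.05 (edgeR adjusted p = 0.00172), was higher in 2 of 3 hearts, and did not pass without the block (edgeR adjusted p = 0.227) or without infarct 3 (log2 fold change 0.17, edgeR adjusted p = 0.0287), within a range of 0.000158 to 0.227 over 14 alternatives. Ifitm1 and Ifitm6 did not pass, with log2 fold changes of -0.05 ± 0.18 (edgeR adjusted p = 0.900) and -0.08 ± 0.16 (edgeR adjusted p = 0.806), although Ifitm6 was lower without infarct 2 (log2 fold change -0.54, edgeR adjusted p = 0.00184, the lowest over 14 alternatives). In the same comparison all 27 tested genes of the interferon-stimulated list that did not define the gate were higher, with a median log2 fold change of 2.67 beside -0.02 for all genes, led by Ifit3b at 5.99 and Ifit2 at 5.38. Isg15, a ubiquitin-like protein, was 1053, 1174 and 1168 CPM against 56.2, 69.7 and 54.7 CPM. The list and the gate share an interferon program, and so the count is no independent evidence.

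Reparative-gated macrophages held less Ifitm1, Ifitm3 and Ifitm6 than macrophages of no sub-gate, and 9.2% of all genes were likewise lower. Ifitm1 was 5.65, 6.98 and 2.54 CPM against 23.8, 17.4 and 4.13 CPM, a log2 fold change of -1.45 ± 0.17 (SE, edgeR adjusted p = 9.19e-05). Ifitm6 fell by 2.08 ± 0.14 on the log2 scale (edgeR adjusted p = 1.82e-06) and Ifitm3 by 0.47 ± 0.11 (edgeR adjusted p = 0.00813). Ifitm2 was lower in 3 of 3 hearts and did not pass (log2 fold change -0.30 ± 0.09, edgeR adjusted p = 0.0203), but passed without infarct 2 (log2 fold change -0.39, edgeR adjusted p = 4.06e-05, within 9.39e-08 to 0.417 over 14 alternatives). Summed classical monocyte markers were 69.9, 39.2 and 61.5 CPM in the reparative gate and 222, 102 and 103 CPM in macrophages of no sub-gate, and the part of this in the Ifitm values was not tested. None of the 3 calls held without the block (edgeR adjusted p = 0.151, 0.0623 and 0.0725 for Ifitm1, Ifitm6 and Ifitm3), and the highest adjusted p over 14 alternatives was 0.151, 0.0623 and 0.200.

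The genes that sense interferon, and a list of genes that modify IFITM proteins or concern virus entry, were counted in the same fits. In cDC2-gated against macrophage-gated cells, 3 of 7 receptor and kinase genes were higher and 3 lower. Of the modifier and entry list, 4 of 7 genes were lower, beside 19.6% of all genes lower. Jak2 was 177, 156 and 137 CPM in cDC2-gated cells against 26.0, 21.9 and 24.7 CPM, a log2 fold change of 2.69 ± 0.10 (SE, edgeR adjusted p = 3.87e-14). Cd81, a tetraspanin, was 7.95, 10.6 and 7.92 CPM against 265, 337 and 277 CPM (log2 fold change -5.06 ± 0.12, edgeR adjusted p = 5.45e-17), and Zdhhc20 had a log2 fold change of -0.77 ± 0.12 (edgeR adjusted p = 3.72e-05). Of 27 tested interferon-stimulated genes that were not gate markers, 2 were higher in cDC2-gated cells and 12 lower, with a median log2 fold change of -0.32 beside -0.09 for all genes. In non-classical against classical monocyte-gated cells, 25 of 32 were lower and none higher, beside 7.86% of all genes lower, with a median log2 fold change of -1.48 beside -0.0046 for all genes. In interferon-gated macrophages Ch25h, which makes 25-hydroxycholesterol, was 86.2, 132 and 106 CPM against 28.6, 30.1 and 22.5 CPM (log2 fold change 2.13 ± 0.08, edgeR adjusted p = 1.78e-25).

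Over 56 sums of 1 gate in 1 library, the pattern of Ifitm1 was most like those of Mcemp1 (Pearson r = 0.78), Il1b (0.77), Orai1 (0.75), Sbno2 (0.73) and Pim1 (0.73), among 6052 genes. Ifitm2 ranked Trps1 first (r = 0.78), Ifitm3 ranked Plod3 first (0.77) and Ifitm6 ranked Krt80 first (0.75). Among the members, Ifitm2 and Ifitm3 were most alike (r = 0.81), and Ifitm1 was nearer to Ifitm2 (0.66) than to Ifitm3 (0.33). Sums of 1 library share its depth, and gates of 1 library share its RNA background. The other Ifitm genes were close to absent: over all cells Ifitm5 was 1.25 to 2.54 CPM, Ifitm10 was 0.416 to 0.808 CPM and Ifitm7 was at most 0.133 CPM.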

How the data were processed

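The authors sorted the cells, prepared 3′ libraries (10x Genomics) and counted UMIs with Cell Ranger, 3.0.1 per the labels and 3.1.0 per the file headers, against mm10. The deposited count of each gene and cell was used as given. Cells outside 500 to 40000 UMIs, or with 200 genes or fewer, were left out. Doublets were scored with Scrublet, whose automatic threshold called 0 to 0.00988% of infarct cells and had not worked, so the highest-scoring 8.10% to 8.63% of cells were removed, only as an alternative. The members, gates and gene lists were chosen with earlier results of these data known.

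Counts were summed per library and gate. Gates of the 3 infarct libraries were compared with edgeR 4.0.16 (TMM, filterByExpr, quasi-likelihood, library as a block because both sums came from 1 heart). Ifitm1 with a dendritic-cell gate, and members with at most 3 UMIs in a gate, were described only. Infarct and baseline were compared as CPM without a test. Named genes followed a rule: the members, up to 5 interferon-stimulated genes with the largest changes, receptor and modifier genes past the threshold, and the 5 genes most like each member. The test was checked on simulated counts with 4-fold and 2-fold changes, and in the cDC2 comparison, among 13141 genes, it recovered 100% of the 4-fold and 82.4% of the 2-fold ones. The lowest share of 2-fold ones was 68.2%, in non-classical monocytes among 8567 genes. The simulation used a fixed dispersion, a library effect shared by both gates, and changes only in genes above a count limit. These shares therefore hold for that setting and do not give the power for genes that vary more between hearts. Over the last 500 bases, 41.9% of 50-base words of Ifitm2, 14.0% of those of Ifitm3 and 11.8% of those of Ifitm1 also occurred in other genes, mainly each other and pseudogenes, and none of those of Ifitm6, so that reads could be split or dropped between them. Gm45717 overlaps Ifitm2 on the same strand. CPM values of different members are not compared as levels. Intervals cover counting error only.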

Additional observations from a re-analysis of the deposited data

Results flagged for a closer look

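All 4 genes had infarct ratios of opposite sign in different gates, with every infarct library on 1 side of baseline in each, and these differences between gates were not tested. In granulocyte-gated cells the log2 ratio of infarct to baseline was -1.85 for Ifitm1, -0.70 for Ifitm2 and -0.64 for Ifitm3, while in 9, 11 and 9 other gates every infarct library was above baseline. For Ifitm1 some of these gates rest on few baseline UMIs: 0 in cycling, 1 in interferon-gated and 3 in reparative-gated macrophages, and 8 in C1q-positive monocyte-marker cells. In non-classical monocytes the lowest infarct value, 9.67 CPM, lay inside the baseline counting interval of 5.14 to 10.1 CPM. For Ifitm6 the log2 ratio was -0.20 in classical monocyte-gated cells, -1.76 in fibroblast-gated cells (4 UMIs at baseline) and -1.03 in granulocyte-gated cells, while in 4 other gates every infarct library was above baseline. The granulocyte gate held 29 to 47 cells per library.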

How the results depend on the processing

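Over 31 tests of a member in a comparison of gates and 434 alternatives of them, 421 kept the direction and 390 kept the call. The number of members past the threshold changed as follows. Without the replicate block 0 of 3 remained in C1q-positive monocyte-marker cells, 1 of 3 in non-classical monocytes, 2 of 4 in granulocytes, 1 of 2 in interferon-gated macrophages and 0 of 3 in reparative-gated macrophages, and the block changed no other number. With DESeq2 it was 1 in granulocytes, 1 in interferon-gated and 2 in reparative-gated macrophages. After thinning it was 2 in place of 1 in mature dendritic cells against macrophages, 1 in interferon-gated macrophages, 4 in C1q-positive cells and 3 in granulocytes. Without doublets it was 1 in C1q-positive cells and 2 in reparative-gated macrophages. With at least 2 of 6 markers it was 1 in reparative-gated macrophages, 4 in C1q-positive cells and 3 in granulocytes, and with at least 4 of 6 it was 1 in interferon-gated macrophages and 2 in C1q-positive cells. Without the filter on low counts it was 4 in C1q-positive cells, 3 in granulocytes and 4 in reparative-gated macrophages. It was 3 in granulocytes with a C1q limit of 5, and 4 in C1q-positive cells with a limit of 20 or without cells over 10% mitochondrial UMIs. Leaving out 1 infarct gave 1 to 4 in C1q-positive cells, 3 to 4 in granulocytes, 1 to 3 in interferon-gated and 3 to 4 in reparative-gated macrophages, and Ifitm1 in granulocytes against monocytes ranged from -0.25 to 1.32. The number of gates with every infarct above baseline for Ifitm6 (4) was 4 to 8 leaving out 1 infarct and 2 with at least 2 of 6 markers, where its log2 ratio in non-classical monocytes turned to -0.061. Over all cells, TMM factors gave 0.71 for Ifitm2 and 0.20 for Ifitm3. The cause was not tested. With 1 baseline library, the infarct ratios have no replicate error. Cells of type 1 dendritic markers were tested only with at least 2 of 6 markers, where Ifitm6 was higher than in macrophages (log2 fold change 1.95, adjusted p = 8.5e-05).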
